A study of Mus musculus with 12 samples.

Results

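The genes described are *Sqstm1*, *Nbr1*, *Tax1bp1* and *Optn*, which encode autophagy cargo receptors, *Map1lc3a*, *Map1lc3b*, *Gabarap*, *Gabarapl1* and *Gabarapl2*, which encode the ubiquitin-like ATG8 proteins, and *Ulk1*, which encodes the kinase that initiates autophagy. They were chosen by name, with earlier results of these data known, from the 27179 genes in the count tables. Entrez gene identifiers were matched to mouse symbols, and all 10 genes had enough counts to be tested. The 12 libraries came from primary hippocampal neurons of C57BL/6 pups of postnatal day 0 or 1 (labels; the methods of the study name C57BL/6 and FVB mice of day 0), kept for 17 or 18 days in vitro on Transwell membranes, through which neurites grow so that they can be collected apart from the somas. MG132-stressed cultures received 10 µM of MG132, a proteasome inhibitor, for 7 h, and Ctrl cultures received the solvent DMSO. Each treatment was read in somas and in neurites (axons and dendrites together), which gave 4 groups of 3 libraries, named here by treatment and compartment (Ctrl somas, for example). The labels name no transgene or deletion.

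In selective autophagy, a receptor binds ubiquitinated cargo with its ubiquitin-binding domain and an ATG8 protein on the growing autophagosome membrane with a short LC3-interacting motif. p62, the product of *Sqstm1*, gathers ubiquitinated proteins into condensates together with NBR1, and TAX1BP1 and optineurin (*Optn*) bind ubiquitin on protein aggregates, damaged mitochondria or bacteria. The ATG8 proteins fall into an LC3 branch (*Map1lc3a*, *Map1lc3b*) and a GABARAP branch (*Gabarap*, *Gabarapl1*, *Gabarapl2*), and each is attached to a membrane lipid before it can hold cargo. Neurons depend on this pathway for clearing proteins that the proteasome leaves behind, and autophagosomes that form in axons are carried back to the soma.

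The libraries held 4247610 to 22166347 counts, and the Ctrl libraries 5750510 to 10052321. The neuronal markers *Map2*, *Rbfox3*, *Tubb3*, *Snap25*, *Syt1*, *Camk2a* and *Slc17a7* were detected in every library, but so were all 6 markers each of astrocytes, oligodendrocyte lineage and microglia, so the cultures were mixed. The summed level of the 6 astrocyte markers ran from 3337 to 4424 CPM (counts scaled to a common library size) in Ctrl somas and from 17141 to 23224 CPM in Ctrl neurites, with *Gfap*, the astrocyte intermediate filament, as the largest part. *Slc1a3*, the next largest, ran from 925 to 1117 CPM in Ctrl somas and from 915 to 983 CPM in Ctrl neurites. The summed microglial markers ran from 505 to 619 CPM in Ctrl somas and from 124 to 217 CPM in MG132 somas, and in neurites from 507 to 1001 CPM in Ctrl and from 76.7 to 170.4 CPM after MG132. The treatment itself was visible in the genes fixed as its check: *Hspa1a*, *Dnajb1* and *Hmox1* rose in somas by 8.75, 4.15 and 4.38 on the log2 scale. As these are bulk samples, fewer cells of a type and less RNA per cell cannot be told apart. CPM are scaled here by the TMM method, and a gene is called changed when its p-value from edgeR's quasi-likelihood test, adjusted by the Benjamini-Hochberg method over 14185 genes, is below 0.01.

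After MG132 the mRNAs of 3 of the 4 cargo receptors rose in both compartments, *Sqstm1* by far the most, whereas none of the 5 ATG8 mRNAs passed the test in either compartment. *Ulk1* rose in somas. In somas 4 of the 10 genes were called higher and 0 lower, where 9.52% of all tested genes were called higher and 5.72% lower. In neurites 3 were called higher and 0 lower, against 9.76% and 5.67% of all tested genes. As the 10 genes were chosen with earlier results of these data known, the shares over all tested genes are given as description only. The median log2 change of the 10 genes was 0.43 in somas and 0.25 in neurites, beside -0.07 and -0.16 over all tested genes. All MG132 libraries lay above all Ctrl libraries for 6 of the 10 genes in somas and below them for 1, and for 4 and 1 in neurites, where 23.2% and 22.7% of all tested genes were apart in this way in somas and 20.4% in each direction in neurites. A stricter rule that adds a log2 change above 1.7 was met by *Sqstm1* in somas (2.11% of all tested genes rose that far) and by *Sqstm1* and *Optn* in neurites (2.44%).

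**Figure D1:**
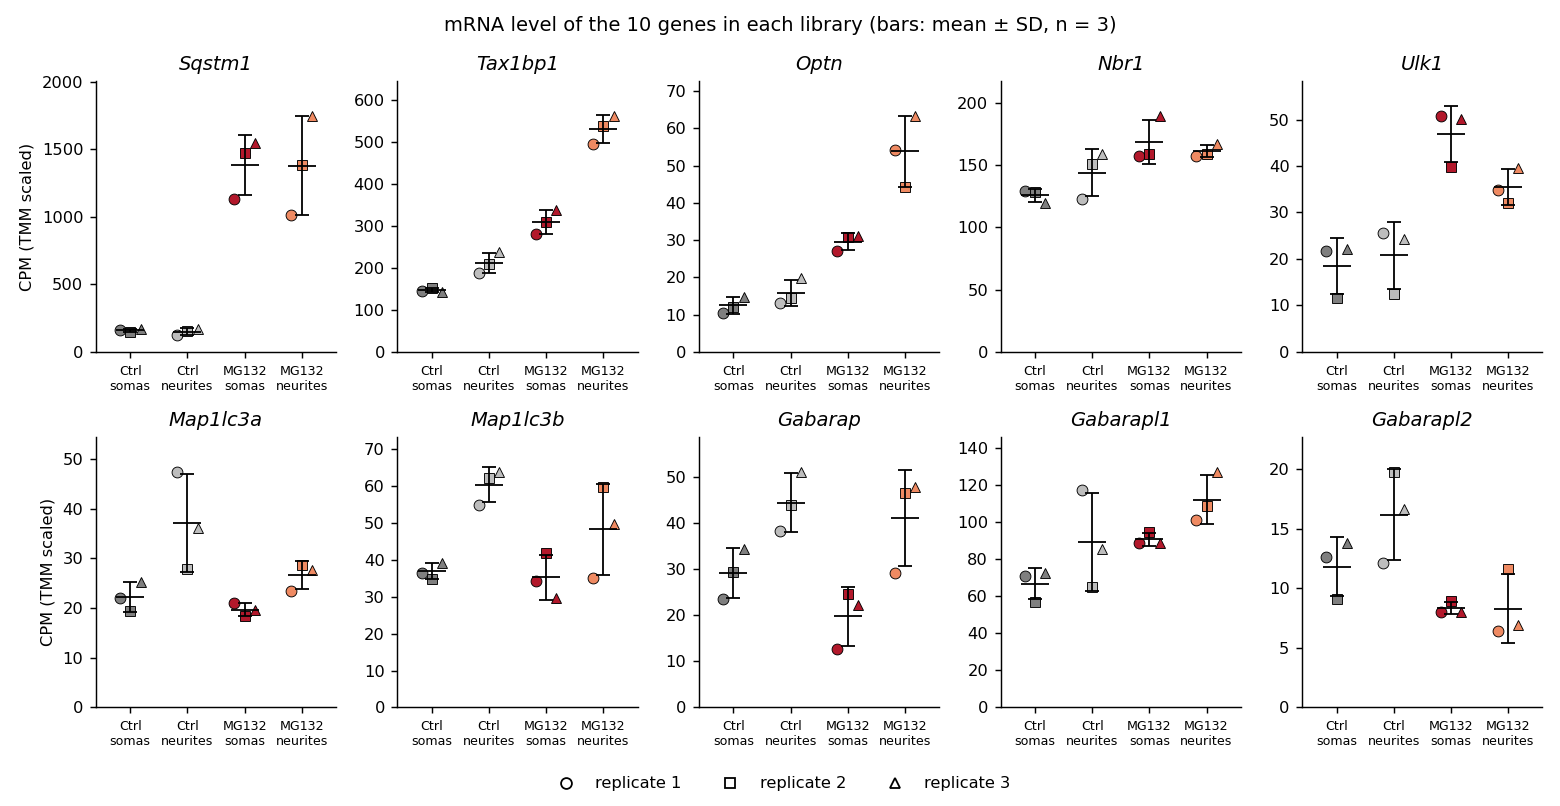
Level of each of the 10 mRNAs in CPM (vertical axis from 0, TMM scaled) in the 3 libraries of each group, with mean ± SD as bars and the replicate number as the symbol. In the *Sqstm1* panel the 6 MG132 libraries sit between 1013 and 1744 CPM and the 6 Ctrl libraries between 122 and 169.5 CPM, while the ATG8 panels in the lower row show group ranges that lie close together or overlap.

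*Sqstm1* (Entrez 18412; GRCm38 chromosome 11, 50200152 to 50210820) measured 162, 148 and 168 CPM in the 3 Ctrl soma libraries and 1130.4, 1472 and 1547 CPM in the MG132 soma libraries. In neurites it measured 122, 155 and 169.5 CPM in Ctrl and 1013, 1381 and 1744 CPM after MG132. Every MG132 library lay above every Ctrl library, and within each treatment somas and neurites overlapped. The increase was 8.68-fold in somas (log2 3.12, SE 0.23, edgeR adjusted p = 6.66e-07) and 9.26-fold in neurites (log2 3.21, SE 0.23, edgeR adjusted p = 7.36e-07). The log2 change differed between the compartments by 0.09 (SE 0.30, 95% confidence interval -0.55 to 0.73, edgeR adjusted p = 0.989). When its longest transcript was read in windows of 75 bases, 19.6% of them also matched *Mrnip*, a gene that overlaps it. The strand setting of the counting is given only as the default, so reads from that stretch are uncertain.

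*Tax1bp1* (Entrez 52440; chromosome 6, 52713692 to 52766780) measured 144, 153 and 143 CPM in Ctrl somas and 280.3, 309 and 338 CPM in MG132 somas. In neurites the values were 188, 210.1 and 237.1 CPM in Ctrl and 495, 537 and 561 CPM after MG132. The 4 groups did not overlap, and they stood in the order Ctrl somas, Ctrl neurites, MG132 somas, MG132 neurites. MG132 raised the mRNA 2.11-fold in somas (log2 1.08, SE 0.15, edgeR adjusted p = 0.000183) and 2.51-fold in neurites (log2 1.33, SE 0.16, edgeR adjusted p = 3.01e-05).

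*Optn* (Entrez 71648; chromosome 2, 5020521 to 5064399) was a far scarcer mRNA. It measured 10.5, 12.1 and 14.8 CPM in Ctrl somas and 27.0, 30.7 and 31.1 CPM in MG132 somas, and in neurites 13.2, 14.5 and 19.8 CPM in Ctrl and 54.1, 44.2 and 63.2 CPM after MG132. The MG132 libraries of both compartments were above all Ctrl libraries, with MG132 neurites above MG132 somas. The rise was 2.38-fold in somas (log2 1.25, SE 0.23, edgeR adjusted p = 0.00108) and 3.37-fold in neurites (log2 1.75, SE 0.23, edgeR adjusted p = 7.74e-05). The difference of 0.50 between the compartments' log2 changes, with a 95% confidence interval of -0.19 to 1.19, had an unadjusted p of 0.141 in the edgeR test, the lowest among the 10 genes.

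*Nbr1* (Entrez 17966; chromosome 11, 101552107 to 101581951), the receptor that works with p62, was the exception among the receptors. Its level was 129, 128 and 119.8 CPM in Ctrl somas and 158, 159 and 189 CPM in MG132 somas, and in neurites 122.5, 151 and 159 CPM in Ctrl and 157, 159 and 167 CPM after MG132. The groups were apart in somas and overlapped in neurites. Its log2 change was 0.43 in somas (95% confidence interval 0.10 to 0.75, edgeR adjusted p = 0.0512) and 0.16 in neurites (-0.17 to 0.49, edgeR adjusted p = 0.467), so it did not pass the test in either compartment.

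*Ulk1* (Entrez 22241; chromosome 5, 110784489 to 110810120) measured 21.6, 11.5 and 22.2 CPM in Ctrl somas and 50.7, 39.9 and 50.1 CPM in MG132 somas. In neurites it measured 25.7, 12.4 and 24.2 CPM in Ctrl and 34.9, 32.1 and 39.6 CPM after MG132. The MG132 libraries lay above the Ctrl libraries in both compartments, and the library numbered 2 was the lowest of its group in all 4 groups. The summed neuronal markers were also lowest in the library numbered 2 of every group, at 1292 CPM in Ctrl somas and 1658 CPM in Ctrl neurites, and at 917 and 1152 CPM in the same compartments after MG132. The single markers did not all follow the sum. In Ctrl neurites *Camk2a* was lowest in library 2 (604 CPM, against 978 CPM in library 3), but the other markers were lowest in library 3. In Ctrl somas *Map2* and *Syt1* were lowest in library 3, and after MG132 *Tubb3* in both compartments. The part of neuronal RNA in the *Ulk1* values was not tested. *Ulk1* rose 2.54-fold in somas (log2 1.35, SE 0.29, edgeR adjusted p = 0.00345). In neurites its log2 change was 0.79 (SE 0.30, edgeR adjusted p = 0.0615), and with the replicate number as a block it was 0.85 (edgeR adjusted p = 0.00337), which passes the test. The soma call was lost without Ctrl soma replicate 2 (log2 1.10, adjusted p = 0.0171), MG132 soma replicate 1 (1.28, 0.0138) or MG132 soma replicate 3 (1.30, 0.013).

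With libraries scaled by total counts alone, the log2 changes in somas stayed at 1.05 for *Tax1bp1*, 1.24 for *Optn* and 1.33 for *Ulk1*, but their edgeR adjusted p-values of 0.0229, 0.0151 and 0.0117 ended these calls, and *Tax1bp1* in neurites (log2 1.16) had an adjusted p of 0.0112. *Sqstm1* was called in both compartments under that scaling, and *Optn* in neurites. Glial markers moved with the treatment too. In MG132 somas 3 of 6 astrocyte, 2 of 6 oligodendrocyte-lineage and 3 of 6 microglial markers were called lower, and in MG132 neurites 2, 2 and 4 of 6. Of the 7 neuronal markers 0 were called in either direction in either compartment. With the replicate block 5 of 6 markers of each glial type were called lower in somas, and 4, 4 and 5 of 6 in neurites. That fit also called 1 of 7 neuronal markers lower in neurites. The part of glial RNA in the changes of the 10 genes was not tested.

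**Figure D2:**
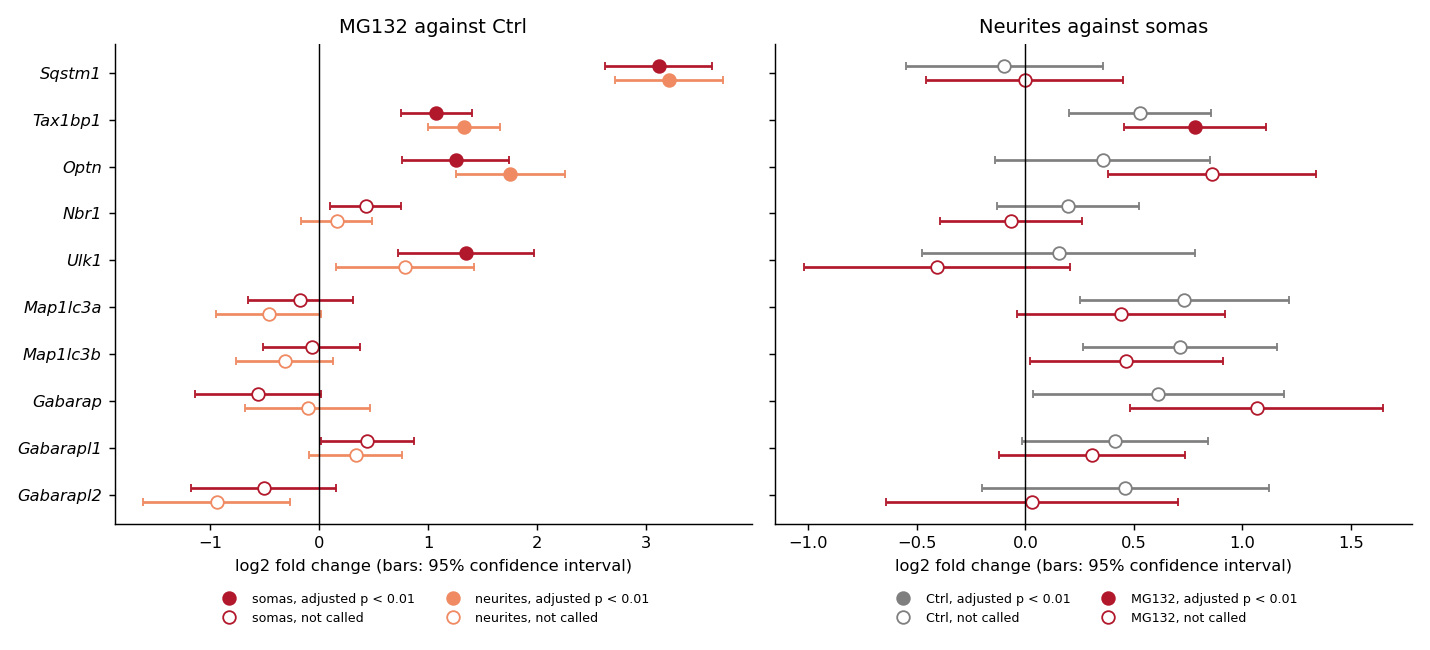
Log2 fold change of each gene (horizontal axis) with its 95% confidence interval, for MG132 against Ctrl in somas and neurites on the left and for neurites against somas in Ctrl and MG132 on the right, where filled points have an edgeR adjusted p below 0.01. On the left *Sqstm1* stands at 3.12 and 3.21, *Tax1bp1* and *Optn* between 1.08 and 1.75, and the ATG8 genes between -0.94 and 0.44; on the right the only filled point is *Tax1bp1* after MG132 at 0.78 (-0.01 with libraries scaled by total counts).

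The promoters shown are those of the 3 genes among the 10 that were called higher after MG132 in both compartments. RefSeq promoter sequences (GRCm38.p6, 5′ to 3′ on the gene's strand) were matched for 9 of the 10 genes, with 11 entries. Each entry runs from 250 bases before to 50 after its own start site. The *Tax1bp1* and *Optn* windows shown lie wholly inside the gene coordinates given above, downstream of the gene start. The 3 motifs searched on both strands were the antioxidant response element core TGACNNNGC, an inverted pair of heat shock units GAANNTTC, and the E-box CACGTG found in lysosomal and autophagy gene promoters. The capitals mark a match. *Sqstm1* is shown at chr11:50210771-50211070 (minus strand), *Tax1bp1* at chr6:52713915-52714214 (plus strand, that of its 2 entries that holds a match) and *Optn* at chr2:5064068-5064367 (minus strand).
Sqstm1: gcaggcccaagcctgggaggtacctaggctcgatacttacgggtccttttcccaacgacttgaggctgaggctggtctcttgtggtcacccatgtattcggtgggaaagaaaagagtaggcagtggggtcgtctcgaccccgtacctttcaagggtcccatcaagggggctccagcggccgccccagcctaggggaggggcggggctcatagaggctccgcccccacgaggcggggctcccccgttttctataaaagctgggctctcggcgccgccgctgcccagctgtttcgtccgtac
Tax1bp1: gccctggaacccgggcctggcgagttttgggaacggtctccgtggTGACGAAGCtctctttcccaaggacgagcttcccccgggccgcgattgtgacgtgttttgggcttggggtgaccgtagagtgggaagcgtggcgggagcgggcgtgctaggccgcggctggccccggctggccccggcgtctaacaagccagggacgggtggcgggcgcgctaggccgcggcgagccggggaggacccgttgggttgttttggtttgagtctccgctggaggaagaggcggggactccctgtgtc
Optn: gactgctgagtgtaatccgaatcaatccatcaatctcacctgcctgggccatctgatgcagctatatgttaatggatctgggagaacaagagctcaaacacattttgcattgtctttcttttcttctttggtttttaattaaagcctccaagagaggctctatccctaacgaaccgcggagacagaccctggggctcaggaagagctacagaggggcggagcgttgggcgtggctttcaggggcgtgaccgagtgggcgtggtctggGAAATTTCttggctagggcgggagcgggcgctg
The antioxidant element core lay in 2 of the 11 entries, beside 12.4% of 32851 RefSeq promoters of this length. These were the *Tax1bp1* entry shown, which was picked for its match, and that of *Map1lc3b*, whose mRNA did not pass the test. The other *Tax1bp1* entry holds none of the 3 motifs. The heat shock pair lay in 1 of the 11 entries, that of *Optn*, against 7.86% of all promoters. This match lies in the 50 bases after the start site of the entry, not before it. The E-box was in 0 of the 11 entries, against 7.15% of all promoters. No match says only that these letters are not in this window.

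None of the ATG8 mRNAs passed the test after MG132, and their values leaned both ways. *Gabarapl1* (Entrez 57436; chromosome 6, 129533192 to 129542331) measured 71.0, 57.0 and 72.5 CPM in Ctrl somas and 88.5, 94.8 and 88.8 CPM in MG132 somas, and in neurites 117, 65.1 and 85.4 CPM in Ctrl and 101, 108 and 127 CPM after MG132. It was the 1 ATG8 mRNA whose MG132 soma libraries all lay above the Ctrl soma libraries, and in neurites the groups overlapped. Its log2 change was 0.44 in somas (95% confidence interval 0.01 to 0.87, edgeR adjusted p = 0.119) and 0.33 in neurites (-0.10 to 0.76, edgeR adjusted p = 0.239). The mRNA shares 17.5% of its 75-base windows with 1700101I11Rik, another annotated gene, so reads from that stretch are uncertain.

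*Gabarapl2* (Entrez 93739; chromosome 8, 111940703 to 111952915), which encodes the family member also known as GATE-16, was the least abundant ATG8 mRNA per kilobase in every group. It measured 12.6, 9.09 and 13.8 CPM in Ctrl somas and 8.05, 8.92 and 8.04 CPM in MG132 somas, and in neurites 12.2, 19.8 and 16.6 CPM in Ctrl and 6.39, 11.6 and 6.92 CPM after MG132. All MG132 libraries were below all Ctrl libraries of the same compartment. The log2 change was -0.51 in somas (95% confidence interval -1.18 to 0.15, edgeR adjusted p = 0.247) and -0.94 in neurites (-1.62 to -0.27, edgeR adjusted p = 0.0386), which does not reach the threshold. Its counts were small, from 28 to 257 per library in MG132 neurites.

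*Gabarap* (Entrez 56486; chromosome 11, 69991370 to 69994949) measured 23.6, 29.5 and 34.4 CPM in Ctrl somas and 12.6, 24.6 and 22.2 CPM in MG132 somas, with overlapping groups. In neurites it measured 38.4, 43.9 and 51.1 CPM in Ctrl and 29.2, 46.5 and 47.8 CPM after MG132, again overlapping. The log2 changes were -0.56 (95% confidence interval -1.14 to 0.02) in somas and -0.11 (-0.68 to 0.47) in neurites. *Map1lc3a* (Entrez 66734; chromosome 2, 155276364 to 155278073) measured 22.0, 19.3 and 25.3 CPM in Ctrl somas and 20.996, 18.4 and 19.5 CPM in MG132 somas, and in neurites 47.4, 27.8 and 36.0 CPM in Ctrl and 23.5, 28.7 and 27.7 CPM after MG132. Its groups overlapped in both compartments, with log2 changes of -0.17 (-0.65 to 0.31) and -0.47 (-0.95 to 0.02). *Map1lc3b* (Entrez 67443; chromosome 8, 121590438 to 121598760), which encodes the LC3B protein widely used to mark autophagosomes, measured 36.5, 34.9 and 39.3 CPM in Ctrl somas and 34.2, 41.8 and 29.8 CPM in MG132 somas. In neurites it measured 55.0, 62.3 and 63.9 CPM in Ctrl and 35.1, 59.8 and 49.9 CPM after MG132. Its groups overlapped in both compartments too, with log2 changes of -0.07 (-0.52 to 0.37) and -0.32 (-0.76 to 0.13). *Map1lc3b* and *Gabarapl2* share 10.9% and 13.4% of their 75-base windows with 3 other annotated genes each, so some of their reads are uncertain.

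The make-up of the ATG8 mRNA pool was also compared, as the share of each gene in the summed CPM per kilobase of the 5 genes, which does not depend on how libraries are scaled. *Gabarapl1* had the largest mean share in every group. It made up 39.7%, 34.9% and 35.6% of the pool in Ctrl somas and 51.1%, 47.9% and 49.1% in MG132 somas, a mean of 36.8% ± 2.59 against 49.4% ± 1.62 (SD, n = 3 each). In neurites it made up 39.2%, 27.6% and 30.8% in Ctrl and 47.9%, 39.6% and 45.4% after MG132, a mean of 32.5% ± 6.02 against 44.3% ± 4.23. The groups did not overlap in either compartment, with an exact two-sided permutation p of 0.1 for each, the smallest that 3 against 3 libraries allow, and 0.25 after adjustment over 20 such tests.

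The *Gabarap* share in somas went from 21.6% ± 3.45 to 14.4% ± 3.96 (SD, n = 3 each) and that of *Gabarapl2* from 7.02% ± 0.864 to 4.92% ± 0.112, both without overlap (exact permutation p = 0.1). In neurites the *Map1lc3a* share went from 22.1% ± 3.38 to 17.2% ± 1.02, without overlap (exact permutation p = 0.1), whereas that of *Gabarap*, 22.4% against 21.5%, overlapped (exact permutation p = 0.6). The LC3 branch together, a sum chosen after its values were seen and therefore given with no test, held 34.2% to 34.9% of the pool in Ctrl somas and 29.5% to 34.1% in MG132 somas. In neurites it held 37.8% to 39.1% in Ctrl and 29.0% to 32.9% after MG132. In each compartment the MG132 libraries lay below the Ctrl libraries.

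**Figure D3:**
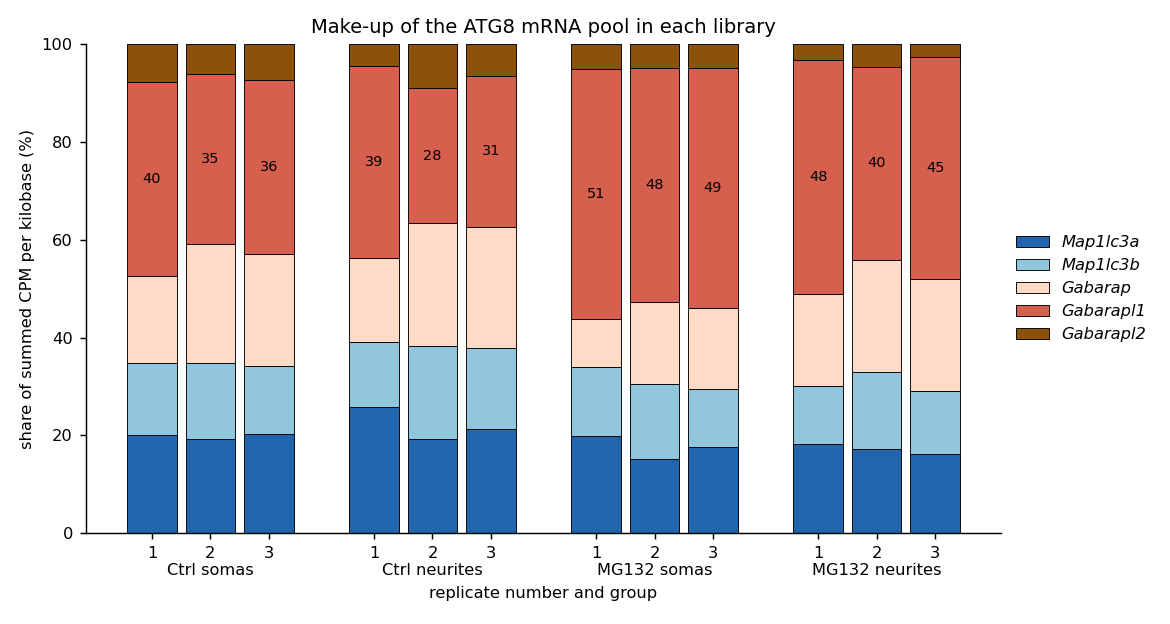
Share of each of the 5 ATG8 genes in their summed CPM per kilobase (vertical axis, percent) in each of the 12 libraries, stacked by gene and ordered by group and replicate number, with the *Gabarapl1* share written in its segment. The *Gabarapl1* segment takes 34.9% to 39.7% of the bar in Ctrl somas and 47.9% to 51.1% in MG132 somas, and in neurites 27.6% to 39.2% in Ctrl and 39.6% to 47.9% after MG132.

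Levels between genes were set side by side only as CPM per kilobase of exon. In Ctrl somas *Sqstm1* stood at 56.5 ± 3.58 CPM per kilobase, *Tax1bp1* at 44.7 ± 1.56 and *Gabarapl1* at 36.7 ± 4.69 (SD, n = 3 each), and none of these neighbours overlapped. Next came *Nbr1* at 24.7, *Gabarap* at 21.6 and *Map1lc3a* at 19.96 CPM per kilobase, whose neighbours overlapped, then *Map1lc3b* at 14.6, and last *Gabarapl2*, *Optn* and *Ulk1* at 7.06, 4.77 and 3.54, again overlapping. In Ctrl neurites *Tax1bp1* (64.4 ± 7.51 CPM per kilobase), *Sqstm1* (52.7 ± 8.64) and *Gabarapl1* (49.1 ± 14.5) led and overlapped with each other as neighbours.

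After MG132 the order opened up at the top. *Sqstm1* reached 490 ± 78.7 CPM per kilobase in somas and 489 ± 129 in neurites, above *Tax1bp1* at 94.1 ± 8.78 and 162 ± 10.1 and *Gabarapl1* at 49.8 ± 1.94 and 61.7 ± 7.38, with no overlap between these neighbours. *Gabarapl2* had the lowest mean of the 10 genes in both compartments, at 4.97 and 4.96 CPM per kilobase, although its libraries overlapped with those of *Ulk1* in neurites. Beside the whole ATG8 pool, a ratio also chosen after its values were seen, the *Sqstm1* level per kilobase was 0.533 to 0.586 of the summed ATG8 level in Ctrl somas and 4.21 to 5.51 times it in MG132 somas. In neurites it was 0.263 to 0.424 of that sum in Ctrl and 3.10 to 4.01 times it after MG132. These are mRNA levels, and the amount of p62 or of lipid-bound LC3 protein was not measured in these libraries.

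Between the compartments of Ctrl cultures, 0 of the 10 genes were called by edgeR, where 6.3% of all tested genes were called higher and 1.3% lower in neurites. By unadjusted edgeR p, 4 of the 10 genes, *Tax1bp1*, *Map1lc3b*, *Map1lc3a* and *Gabarap*, were under 0.05, and DESeq2 called *Tax1bp1* alone. With TMM scaling these 4 were higher in all 3 neurite libraries than in any soma library, at log2 differences of 0.53, 0.71, 0.73 and 0.61 (edgeR adjusted p of 0.0298, 0.032, 0.0398 and 0.153), beside 17.8% of all tested genes whose neurite libraries all lay above, and 0 of the 10 lay below, beside 15.9%. At an adjusted p under 0.05, 3 of the 10 were higher, beside 10.2% of all tested genes. With the replicate number as a block, *Tax1bp1* (log2 0.52, edgeR adjusted p = 0.00466) and *Map1lc3b* (0.70, 0.0077) passed the test. *Sqstm1*, at a log2 difference of -0.10 (95% confidence interval -0.55 to 0.36), and *Nbr1*, at 0.20 (-0.13 to 0.52), overlapped between the compartments.

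After MG132, *Tax1bp1* was the 1 gene of the 10 called higher in neurites (log2 0.78, SE 0.15, edgeR adjusted p = 0.00253, and -0.01 on total counts), where 7.2% of all tested genes were called higher and 2.16% lower. At an adjusted p under 0.05, 3 of the 10 were higher, beside 11.4%. All neurite libraries lay above the soma libraries for 5 of the 10 genes and below for 1, beside 18.9% and 17.9% of all tested genes. *Gabarap* (log2 1.07, SE 0.27, edgeR adjusted p = 0.0138) and *Optn* (0.86, SE 0.22, edgeR adjusted p = 0.0153) lay higher in all 3 neurite libraries and missed the threshold, and with the replicate block both passed it (edgeR adjusted p = 0.000211 and 0.00244). The *Tax1bp1* call was lost without MG132 soma replicate 1 (log2 0.78, adjusted p = 0.0105), MG132 soma replicate 2 (0.78, 0.0115) or MG132 neurites replicate 2 (0.77, 0.0116). *Ulk1* stood the other way round, with a log2 difference of -0.41 (95% confidence interval -1.02 to 0.21, edgeR adjusted p = 0.37) and all 3 neurite libraries below the soma libraries. In Ctrl its neurite value was above that of the same-numbered soma library in 3 of 3 pairs, and the change between treatments of -0.56 did not pass the test (SE 0.41, edgeR adjusted p = 0.858).

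The direction of the compartment differences depended on the scaling. On total counts the median log2 difference of all tested genes moved from -0.04 to -0.70 in Ctrl and from -0.08 to -0.86 after MG132, and *Tax1bp1* stood at -0.13 and -0.01, still above these medians. In Ctrl *Map1lc3a*, *Map1lc3b* and *Gabarap* stood at 0.03, 0.06 and -0.02. *Gabarap* and *Optn* after MG132 stood at 0.30 and 0.02 on total counts. The astrocyte marker sum differed between the same libraries, at 1877 to 2619 CPM in MG132 somas and 7979 to 18524 CPM in MG132 neurites. *Gfap*, its largest part, was called higher in neurites at a log2 difference of 3.18 in Ctrl and 3.14 after MG132. The other astrocyte markers did not all follow. Of the 6, 1 was called higher and 1 lower (*Gja1*) in Ctrl neurites, with a median log2 difference of -0.16. After MG132, 3 were called higher and 1 lower, again *Gja1*, with a median of 0.55. The part of glial RNA in the compartment differences was not tested.

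The response to MG132 did not differ detectably between somas and neurites for any of the 10 genes. For the interaction, 0 of the 10 genes had an edgeR adjusted p below 0.01, as had 0% of all tested genes, 0 of the 10 had an unadjusted p below 0.05, beside 7.05% of all tested genes, and DESeq2 called 0 of the 10. The 95% confidence intervals of the difference ran from -0.73 to 0.20 for *Nbr1*, the narrowest, and from -1.37 to 0.51 for *Gabarapl2*, the widest.

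Over the 12 libraries, the tested genes whose centred log2 CPM followed *Sqstm1* most closely were *Hsph1*, the HSP110 chaperone gene, *Csrnp1* and *Ifrd1*, with a root mean square difference of 0.22, 0.30 and 0.30 log2 units. Of the other 9 genes, *Optn*, *Tax1bp1* and *Ulk1* came nearest to *Sqstm1*, at 0.91, 1.05 and 1.10 log2 units, and *Gabarapl2* was farthest at 1.96. For *Gabarapl1* the nearest genes were *Immt*, *Limk1* and *Kat6a*, at 0.14, 0.15 and 0.16 log2 units.

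A list of 67 other autophagy genes, grouped by role, was also drawn up with earlier results of these data known. Of these, 66 could be tested (*Atg9b* was not). In MG132 somas 19 were called higher and 3 lower, with a median log2 change of 0.30. Of all tested genes 9.52% were called higher and 5.72% lower, with a median of -0.07. The group that supplies membrane to the growing autophagosome had the largest called share, 5 of 9 tested genes higher and 0 lower: *Atg2a* (log2 1.81) and *Atg2b* (0.92), which encode lipid transfer proteins, *Wipi2* (1.89) and *Wdr45b* (1.13), which encode phosphoinositide-binding adaptors, and *Tmem41b* (1.40), which encodes a lipid scramblase. In the initiation complex *Rb1cc1*, the scaffold FIP200, rose (log2 1.14) whereas *Ulk2*, the paralog of *Ulk1*, fell by 0.79. Of 11 genes for ATG8 conjugation and processing 2 were called higher, *Atg12* (log2 1.44) and *Atg16l1* (1.13). Of 8 lipid kinase genes 2 were called higher, of 8 genes for fusion with lysosomes 3, among them the tethering factor *Epg5* (log2 1.19), of 14 other receptors 2 higher and 1 lower, and of 12 regulators 4 higher and 1 lower, among them the segregase *Vcp* (0.92). The genes named in this account by role were picked after their values were seen.

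By size, the largest called rises in MG132 somas were those of *Stbd1*, a receptor for glycogen (log2 4.72, SE 0.90, edgeR adjusted p = 0.00136), and *Bag3*, a co-chaperone that routes clients of HSP70 to autophagy (2.55, SE 0.28, edgeR adjusted p = 2.29e-05). *Stbd1* had 2 to 6 counts per Ctrl soma library and 51 to 200 per MG132 soma library, so its fold is imprecise. The largest called falls were those of *Fundc1*, a mitophagy receptor of the outer mitochondrial membrane (-1.15, SE 0.28, edgeR adjusted p = 0.00747), and *Foxo1*, a transcription factor that drives autophagy genes (-0.99, SE 0.20, edgeR adjusted p = 0.00213). On total counts 6 of the 66 genes were called higher and 0 lower, and with the replicate block 22 higher and 7 lower. Leaving out Ctrl soma replicate 1, MG132 soma replicate 1 or MG132 soma replicate 3 left 13, 14 and 13 calls.

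In MG132 neurites 12 of the 66 were called higher and 2 lower, with a median log2 change of 0.24, where 9.76% of all tested genes were called higher and 5.67% lower, with a median of -0.16. *Atg14*, a subunit of the autophagy lipid kinase complex, showed the largest called rise (log2 2.69, SE 0.43, edgeR adjusted p = 0.000344), from 5.78 ± 4.13 to 39.7 ± 6.78 CPM (SD, n = 3). It had 4 to 78 counts per Ctrl neurite library, so its fold is imprecise. Next came *Bag3* (2.10, SE 0.28, edgeR adjusted p = 8.32e-05). *Wipi1*, which binds the lipid that this kinase makes, fell by 1.41 (SE 0.33, edgeR adjusted p = 0.0056) and *Ulk2* fell by 1.11 (SE 0.18, edgeR adjusted p = 0.00033). By role, 3 of 9 membrane supply genes were called higher and 1 lower, with *Atg2a* (log2 1.13), *Atg2b* (1.19) and *Wipi2* (1.18), and of the conjugation genes *Atg3* (1.24) and *Atg16l1* (1.02) were called. With the replicate block 18 were called higher and 6 lower, with DESeq2 17 and 6, on total counts 3 and 1, and without Ctrl neurites replicate 2 the edgeR calls numbered 9.

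**Figure D4:**
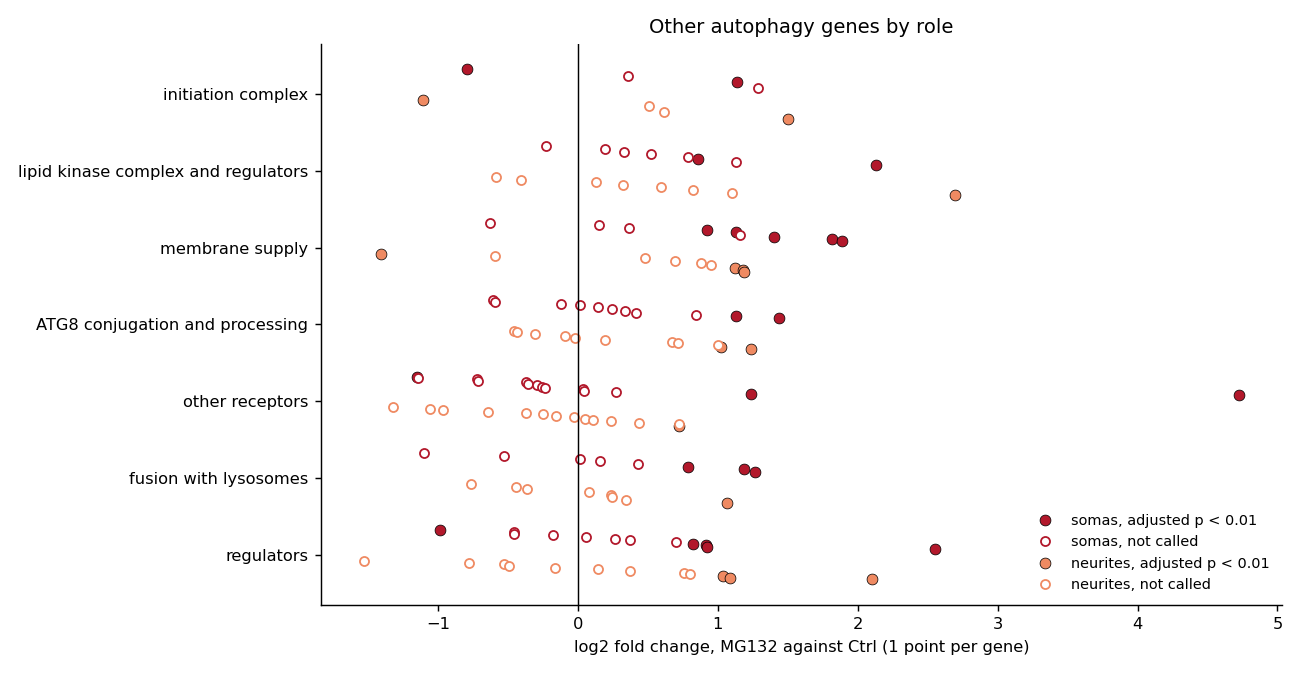
Log2 fold change of the 66 tested other autophagy genes after MG132 (horizontal axis), 1 point per gene, grouped by role, in somas and in neurites, where filled points have an edgeR adjusted p below 0.01. Filled points number 19 above and 3 below 0 in somas and 12 above and 2 below 0 in neurites, with *Stbd1* in somas farthest to the right at 4.72.

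Between compartments, 7 of the 66 genes were called higher and 2 lower in Ctrl neurites, and 7 higher and 3 lower in MG132 neurites. Of all tested genes 6.3% and 1.3% were called higher and lower in Ctrl, and 7.2% and 2.16% after MG132. *Pink1*, the kinase that marks damaged mitochondria for autophagy, showed by far the largest difference, at 52.6 ± 3.41 CPM in Ctrl somas against 645 ± 142 CPM in Ctrl neurites (SD, n = 3; log2 3.61, SE 0.22, edgeR adjusted p = 2.11e-07) and a log2 difference of 3.54 after MG132. It was also higher in neurites on total counts, at log2 2.93 and 2.76. *Atg12*, the ubiquitin-like partner of ATG5 (log2 1.57, SE 0.19, edgeR adjusted p = 4.87e-05), was the next in Ctrl, and *Atg3*, the enzyme that hands ATG8 proteins to their lipid (1.48, SE 0.19, edgeR adjusted p = 6.91e-05), the next after MG132. The largest called differences towards somas in Ctrl were those of *Rtn3*, a receptor for endoplasmic reticulum tubules (-0.97, SE 0.16, edgeR adjusted p = 0.000665), and *Foxo1* (-0.93, SE 0.20, edgeR adjusted p = 0.00534). After MG132 they were those of *Pik3r4*, a subunit of the lipid kinase complex (-1.43, SE 0.35, edgeR adjusted p = 0.00975), and *Atg2a* (-1.11, SE 0.24, edgeR adjusted p = 0.00499). For MG132 cultures the replicate block gave 9 higher and 8 lower and total counts 1 higher and 20 lower, with *Ykt6* turning from log2 0.66 to -0.11. Leaving out a single library of the 6 left 4 to 7 calls. Of these, 0 were lower without MG132 soma replicate 1, MG132 soma replicate 3 or MG132 neurites replicate 2. For Ctrl cultures total counts gave 1 higher and 7 lower, and the replicate block 9 higher and 4 lower.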

How the data were processed

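The authors trimmed adaptors and low-quality sequence from reads of poly(A)-captured RNA with Trimmomatic (0.38.0), aligned them single-end to mm10 with STAR and counted them per gene with featureCounts (2.0.1), with default parameters for STAR and featureCounts. The deposited values are raw counts per Entrez gene, 27179 genes in each of 12 libraries. How strand and multiply aligned reads were handled is not given in the sources used here, beyond the defaults. Only the count columns were used. Libraries fall into 4 groups of 3 by their titles, and since the labels do not say that replicates are separate cultures, p-values measure the spread between these libraries.

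Entrez identifiers were matched to symbols through RefSeq (GRCm38.p6), and 25275 matched. edgeR 4.0.16 in R 4.3.3 fitted 4 group means to the 12 libraries (TMM factors 0.567 to 1.44, default expression filter, 14185 genes), and contrasts were tested by quasi-likelihood and adjusted over all genes. A second rule adds an absolute log2 change above 1.7. Levels per kilobase divide CPM by the union of exons of GENCODE M21 transcripts that carry a RefSeq mRNA identifier. Scripts were tested on simulated counts. Replicates of a group were further apart than counting noise allows (chi-square per degree of freedom 25.0 to 228).

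The members and lists were chosen with earlier results of these data known. All 10 members are named. From the other autophagy genes the 2 largest called changes in each direction were named, among genes that averaged at least 1 CPM and moved alike in the 3 pairs with equal replicate numbers, and others are marked as chosen after seeing values. Same-numbered libraries deviated together (r = 0.165 to 0.248 in the pairs of groups compared). Replicate numbers were taken as pairs only in choosing named genes, in counts of pairs and in the fits with the replicate block. Those fits are given where they change a call. The main edgeR fit and the permutation tests were unpaired, so their p-values and intervals do not use this pairing. Other alternatives were DESeq2 1.42.0, its size factors, total counts, the count filter, the groups in the fit, each library left out, and other thresholds. Counting error is only part of the spread, and with 28 to 257 counts in a group the rarest ATG8 mRNA, Gabarapl2, is the least precise.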

Additional observations from a re-analysis of the deposited data

How the results depend on the processing

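In somas the 4 called genes among the 10 numbered 1 on total counts and 1 with the added log2 limit of 1.7. The calls of Sqstm1 in both compartments held under each alternative run. Between Ctrl compartments the count of 0 became 1 with DESeq2, 2 with the replicate block and 3 at an adjusted p under 0.05. Between MG132 compartments the count of 1 became 0 on total counts and with the log2 limit, 2 with no count filter, 3 with DESeq2, 3 with the replicate block and 3 at an adjusted p under 0.05, and 0 to 2 with a library left out. Of the other autophagy genes, the 22 called in somas became 6 on total counts, 5 with the log2 limit and 13 to 18 with a library left out. In neurites the 14 called became 4 on total counts, 23 with DESeq2, 24 with the replicate block, 26 at an adjusted p under 0.05, 2 with the log2 limit and 9 to 13 with a library left out. The 9 called between Ctrl compartments became 17 at an adjusted p under 0.05 and 1 with the log2 limit, and the 7 higher and 2 lower became 1 and 7 on total counts. The 10 called between MG132 compartments became 21 on total counts, 17 with the replicate block, 20 at an adjusted p under 0.05, 1 with the log2 limit and 4 to 7 with a library left out. The replicate block, that is the paired fit, changed no other call of the 10 genes than those given in the report, and the cause of these changes was not tested.

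Of the called values of the 10 genes, Tax1bp1 between MG132 compartments alone changed direction, and it did so on total counts, as did the other called autophagy gene Ykt6 there. On total counts the log2 value of Nbr1 in neurites became -0.013 and that of the Sqstm1 interaction -0.068. The neurite against soma values in Ctrl became -0.024 for Gabarap, -0.30 for Gabarapl1, -0.17 for Gabarapl2, -0.46 for Nbr1, -0.13 for Tax1bp1, -0.28 for Optn and -0.55 for Ulk1. After MG132 they became -0.34 for Map1lc3a, -0.27 for Map1lc3b, -0.50 for Gabarapl1, -0.67 for Gabarapl2 and -0.011 for Tax1bp1. Gabarapl2 between MG132 compartments was -0.039 with at least 10 counts in every library, -0.0011 with the replicate block and -0.32 to 0.19 with a library left out. Sqstm1 between MG132 compartments was 0.042 with no count filter, 0.020 with only the groups compared and -0.16 to 0.18 with a library left out. With no count filter Gabarap in neurites was 0.028 and the Gabarapl1 interaction 0.017. With a library left out, Map1lc3b in somas ranged from -0.20 to 0.046, Gabarap in neurites from -0.21 to 0.12, Sqstm1 and Ulk1 between Ctrl compartments from -0.27 to 0.031 and from -0.17 to 0.43, Nbr1 between MG132 compartments from -0.11 to 0.077, and the Gabarapl1 and Sqstm1 interactions from -0.29 to 0.14 and from -0.032 to 0.31. The differences in the Sqstm1 to ATG8 ratio became 7.00 and 5.17 for MG132 against Ctrl in somas and neurites without division by length, an alternative chosen after seeing the data. The differences in ATG8 shares moved by less than 1 SD (the larger of the compared groups) without division by length and with each library left out. Small differences could still change sign with a library left out. For MG132 against Ctrl, that of Gabarap in neurites ranged from -3.47 to 0.53 and that of Map1lc3b in somas from -1.62 to 0.055 percentage points. Some differences between compartments changed sign too, such as Gabarap in Ctrl, from -1.17 to 3.33. An interaction fit from only the groups compared was not run, since it needs all 4 groups.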
